A study of Mus musculus with 2 samples.

Results

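*Eomes*, also known as *Tbr2*, and *Tbr1* are T-box transcription factor genes. Both were taken by symbol from the count matrices of a single-cell RNA sequencing study of the embryonic mouse telencephalon, and they are 2 of the 32286 features counted in telencephalic vesicles and 2 of the 28001 counted in septal explants. Each condition was 1 droplet library, so the values below carry counting error only and no difference was tested. The telencephalic vesicle library pooled 3 wild-type embryos from 2 litters, aged E12 by the labels and E11.5 to E12 by the study's methods. The septal explant library pooled 8 *PGKCre;Rosa26YFP* embryos at E11.5 and 4 *Dbx1Cre;Rosa26tdTomato* embryos at E12.5, each set from 2 litters. Its labels give a C57BL/6J background and the genotype as wild-type beside these alleles. In the first of these crosses Cre is driven by a ubiquitous promoter, and in the second it is driven by the *Dbx1* locus and marks cells with a history of *Dbx1* expression.

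T-box factors bind DNA through a conserved domain, the T-box. In the developing cerebral cortex, apical progenitors (APs) divide at the ventricle and give rise to basal progenitors (BPs), which divide away from it and give rise to glutamatergic neurons. *Pax6* is characteristic of APs, *Eomes* of BPs, and *Tbr1* of early-born postmitotic glutamatergic neurons, including deep-layer, subplate and Cajal-Retzius neurons. GABAergic neurons of the subpallium are generated without either gene.

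*Eomes* (ENSMUSG00000032446) lies on the plus strand at chr9:118478212-118486132 of mm10 (GRCm38) and spans 7921 bases, and its longest annotated transcript has 6 exons and 3560 bases. *Tbr1* (ENSMUSG00000035033) lies on the plus strand at chr2:61802930-61814114, spans 11185 bases and also has 6 exons in its longest transcript. The antisense gene *Gm33460* covers the last 574 bases of *Eomes*, where a 3′ tag would fall. It was a separate feature in the telencephalic vesicle matrix alone, with 103 UMIs in 97 cells. No annotated gene overlaps *Tbr1*. The sources used here do not state whether counting used strand, so reads from the shared bases cannot be told apart there.

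The RefSeq promoter windows of both genes, from 250 bases before to 50 bases after the annotated start, are shown because both genes were detected together in the same neurons. The capitals mark each match to CCAAT, the CCAAT box, and to TAATTA, a core bound by homeodomain proteins.
*Eomes*, chr9:118477939-118478238: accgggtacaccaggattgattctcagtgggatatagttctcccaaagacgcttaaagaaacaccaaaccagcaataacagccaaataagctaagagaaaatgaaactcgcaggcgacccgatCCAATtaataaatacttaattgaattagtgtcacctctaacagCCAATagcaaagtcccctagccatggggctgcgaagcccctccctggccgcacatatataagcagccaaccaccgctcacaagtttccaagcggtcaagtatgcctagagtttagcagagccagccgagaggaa
*Tbr1*, chr2:61804203-61804502: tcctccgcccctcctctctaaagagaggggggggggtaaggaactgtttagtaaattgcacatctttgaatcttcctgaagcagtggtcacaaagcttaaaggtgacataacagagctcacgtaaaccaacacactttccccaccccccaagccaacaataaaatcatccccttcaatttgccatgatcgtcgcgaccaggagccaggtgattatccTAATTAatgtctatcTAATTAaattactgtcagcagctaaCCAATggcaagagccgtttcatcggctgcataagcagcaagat
The *Eomes* window held CCAAT at −127 and −84 from the start and had a GC content of 47.3% with 10 CpG dinucleotides. The *Tbr1* window held TAATTA at −33 and −18 and CCAAT at +8, with a GC content of 46.0% and 7 CpG dinucleotides. Among all 32851 RefSeq mouse promoter windows of this length the median GC content was 52.7% and the median number of CpG dinucleotides was 7. On either strand CCAAT occurred in 37.4% of them and TAATTA in 5.29%. The T-box half-site GGTGTGA, found in 3.98% of all windows, and the E-box CAGATG, found in 17.2%, had no match in either window, which says only that these letters are not in these 300 bases. The *Tbr1* window starts within the longest GENCODE gene model, so it belongs to one of its alternative starts.

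The telencephalic vesicle matrix held 194821794 unique molecular identifiers (UMIs, one per captured transcript) over 14283 barcodes, and 11707 cells with a median of 9032 UMIs were kept. The septal explant matrix held 83103280 UMIs over 5827 barcodes, and 5372 cells with a median of 12859.5 UMIs were kept. Of these, 9669 and 5171 cells were neural. Cells were clustered without any T-box gene, and a cluster received a class name, written with "-like", only from marker lists that hold no T-box gene. The remaining clusters are called by their leading genes. Levels are given as CPM, the UMIs of a gene over all UMIs of a class scaled to 1000000, with exact Poisson intervals, and shares of cells with at least 1 UMI with exact Clopper-Pearson intervals, all at 95%. The libraries differed in kit version and counting software, so no level was compared between them. A 3′ kit counts molecules whatever the length of the transcript, but capture can differ between genes, so the ratio of *Tbr1* to *Eomes* was compared between classes and not read as an excess of one transcript.

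*Eomes* was highest in BP-like cells and in several groups of neurons, and was low in every AP class and in GABAergic-like neurons. Its level in the telencephalic vesicle was 402 CPM (383 to 421) in the 384 BP-like cells, of which 82.6% held at least 1 UMI and 68.5% at least 2. It was 374 CPM (345 to 404) in 207 pallial glutamatergic-like neurons, 366 CPM (339 to 395) in 233 neurons of a cluster led by *Otp* and *Epha10*, and 346 CPM (330 to 363) in 593 Cajal-Retzius-like neurons, a class that pooled a cluster at 477 with one at 74.3 CPM. Each of these classes overlapped its neighbour in this order within counting error. The next class in order, the neuron cluster led by *Cck* and *Nxph1*, was set apart at 58.7 CPM (47.3 to 72.0). Among APs, the pallial-like class was at 14.3 CPM and the hem-like class at 13.2 CPM, with overlapping intervals, while ventral pallial-like APs were at 7.25, septal-like APs at 4.63 and subpallial-like APs at 1.79 CPM. Few cells carried these AP values, since 6.41% of pallial-like and 4.28% of hem-like APs held 2 or more *Eomes* UMIs, and single cells held up to 26 and 27. The BP-like level was 28.1 times (25.3 to 31.3) that of pallial-like APs, and pallial-like APs were 7.97 times (5.59 to 11.7) subpallial-like APs.

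The septal explants also separated *Eomes*-rich BP-like cells and neurons from APs. The 207 neurons of a cluster led by *Ndufa4l2* and *Barhl2* were at 451 CPM (424 to 479) and the 447 BP-like cells at 424 CPM (407 to 441), and these intervals overlapped. In the BP-like class 82.1% of cells held an *Eomes* UMI. Pallial glutamatergic-like neurons were at 188 CPM (165 to 215) and Cajal-Retzius-like neurons at 173 CPM (157 to 190), followed by the neuron clusters led by *Tfap2e* and *Calb2* at 147 CPM and by *Gng8* and *Ppp2r2c* at 127 CPM. From the pallial glutamatergic-like class downwards each of these overlapped its neighbour. The pallial glutamatergic-like level was 0.444 times (0.386 to 0.509) the BP-like level in this library, and 0.930 times (0.847 to 1.02) in the telencephalic vesicle. The septal explants pooled E11.5 and E12.5 embryos. YFP, the reporter of the E11.5 embryos, was found at 3 or more UMIs in 223 of the 447 BP-like cells. It was found at this level in 382 of 748 pallial-like APs, 107 of 135 hem-like APs and 124 of 207 Cajal-Retzius-like neurons. The YFP share thus differed between classes, and no YFP count is given here for the pallial glutamatergic-like class. Ratios between septal explant classes may therefore also reflect age, which was not tested. Hem-like APs had 9.87 CPM of *Eomes* and pallial-like APs 3.79 CPM. The BP-like level was 112 times (84.9 to 151) that of pallial-like APs. That AP level, with an interval of 2.82 to 4.98 CPM, overlapped the 2.90 CPM (1.17 to 5.97) of GABAergic-like neurons. The ratio therefore has a denominator near background.

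*Tbr1* was a neuronal transcript in both libraries, with an intermediate level in BP-like cells. The telencephalic vesicle had 482 CPM (450 to 517) of *Tbr1* in pallial glutamatergic-like neurons, where 93.2% of cells held a UMI. The *Cck*/*Nxph1* neurons were at 359 CPM (330 to 390) and the *Otp*/*Epha10* neurons at 309 CPM (284 to 336), with overlapping intervals. Cajal-Retzius-like neurons were at 183 CPM (171 to 195) and BP-like cells at 49.1 CPM (42.6 to 56.3), each apart from the class above it. No AP class exceeded 2.40 CPM. The level in pallial glutamatergic-like neurons was 9.83 times (8.42 to 11.52) that in BP-like cells.

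In the septal explants *Tbr1* was 940 CPM (901 to 980) in the *Ndufa4l2*/*Barhl2* neurons and 925 CPM (888 to 963) in the *Tfap2e*/*Calb2* neurons, whose intervals overlapped. Every cell of both clusters held a *Tbr1* UMI. Cajal-Retzius-like neurons were at 831 CPM (795 to 867), *Gng8*/*Ppp2r2c* neurons at 671 CPM (628 to 716), pallial glutamatergic-like neurons at 526 CPM (486 to 568) and BP-like cells at 115 CPM (107 to 125), each apart from its neighbours. *Tbr1* was detected in 98.9% of the pallial glutamatergic-like cells and in 41.6% of the BP-like cells. The level in pallial glutamatergic-like neurons was 4.55 times (4.08 to 5.09) that in BP-like cells.

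**Figure D1:**
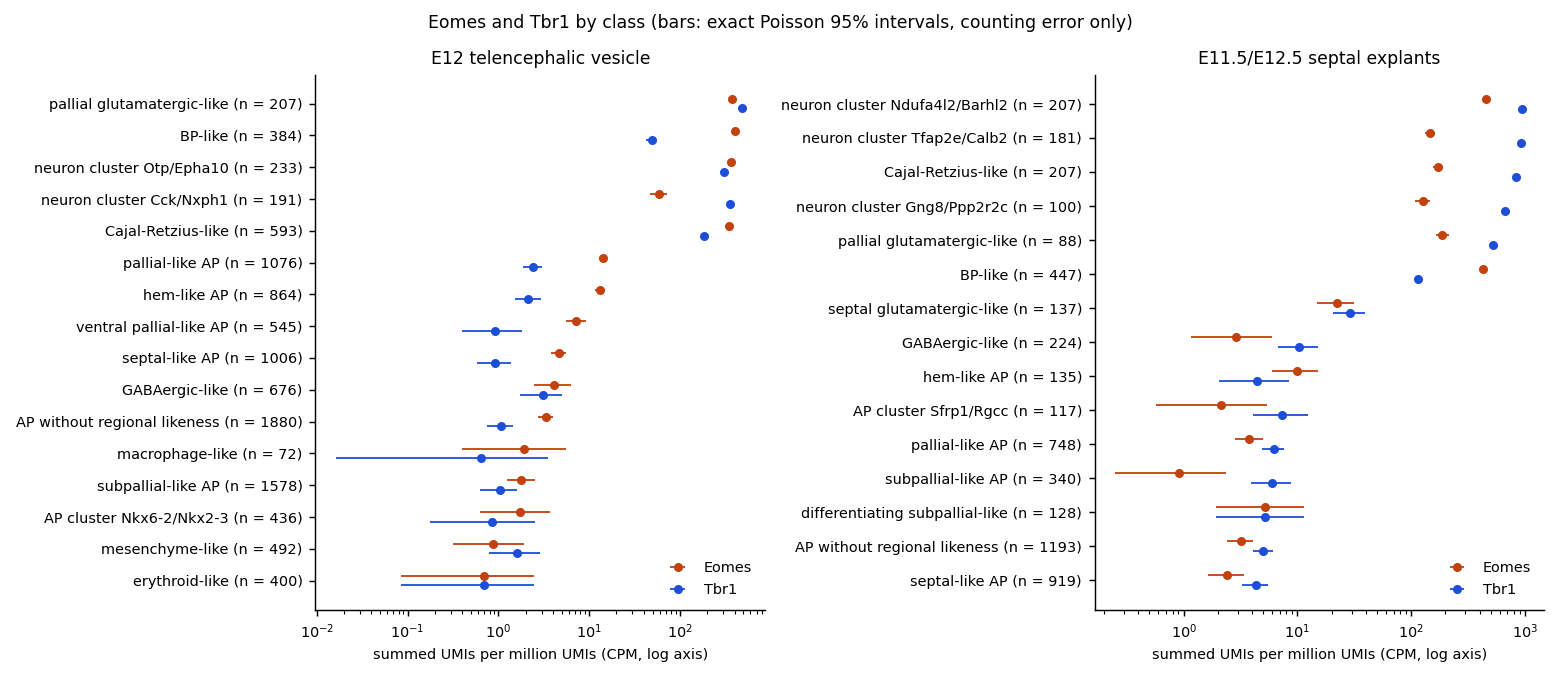
Level of *Eomes* and of *Tbr1* in each class of the telencephalic vesicle and the septal explants, in CPM on a log axis, with exact 95% Poisson intervals for counting error. BP-like cells of the telencephalic vesicle, and its pallial glutamatergic-like, *Otp*/*Epha10* and Cajal-Retzius-like neurons had 346 to 402 CPM of *Eomes*, *Cck*/*Nxph1* neurons 58.7 CPM, and every AP class and GABAergic-like neurons 14.3 CPM or less.

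GABAergic-like neurons, which should lack both genes, were taken as the reference. In the telencephalic vesicle they had *Eomes* in 1.33% of 676 cells and *Tbr1* in 1.18%, with a median of 6594.5 UMIs per cell against 7576.5 in BP-like cells. *Eomes* was in 3.12% and *Tbr1* in 8.48% of the 224 GABAergic-like cells of the septal explants, at a median of 10219 UMIs against 11409 in BP-like cells. *Tbr1* was detected in 5.88 to 10.2% of cells in the pallial-like, septal-like, hem-like and subpallial-like AP classes of the septal explants, a range that includes the GABAergic-like share, so no expression was read from them. Free RNA was not estimated, and single GABAergic-like cells held up to 6 *Tbr1* UMIs in the septal explants and up to 7 *Eomes* UMIs in the telencephalic vesicle. After each cell was thinned to 3500 UMIs in the telencephalic vesicle, which left out 1144 cells, *Eomes* was in 67.7% of BP-like and 1.07% of GABAergic-like cells. After thinning to 8000 UMIs in the septal explants, which left out 510 cells, the shares were 79.4% and 2.65%. For *Tbr1* in pallial glutamatergic-like neurons the thinned shares were 80.9% and 97.6%.

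Within classes both genes varied between clusters. The BP-like class of the septal explants consisted of 3 clusters, and both levels were ordered alike among them. A cluster led by *Neurog2* and *Tfap2c* had 334 CPM of *Eomes* and 66.1 of *Tbr1*. The cluster led by *Neurod4* and *Neurog1* had 418 and 113 CPM, and the cluster led by *Sstr2* and *Optc* had 703 and 267 CPM. Cajal-Retzius-like neurons split the other way. In the telencephalic vesicle the 397 cells led by *Ccno* and *Mcidas* had 477 CPM of *Eomes* and 117 of *Tbr1*, whereas the 196 cells led by *Lhx1os* and *Lhx1* had 74.3 and 320 CPM. Among septal explant cells the 55 led by *Ccno* and *Shisa8* had 414 and 393 CPM, whereas the 152 led by *Sncg* and *Lhx1os* had 93.2 and 975 CPM. *Ccno* and *Mcidas* act in the formation of multiciliated cells, as do other leading genes of these clusters such as *Gmnc* and *Foxj1*, and *Lhx1* is a LIM homeodomain gene of Cajal-Retzius neurons. The *Ccno*/*Mcidas* cluster had 7 of the 9 Cajal-Retzius markers, among them *Trp73*, but not *Reln* or *Calb2*, and its 397 cells made up most of the 593 in the class, while the *Lhx1os*/*Lhx1* cluster had both.

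**Figure D2:**
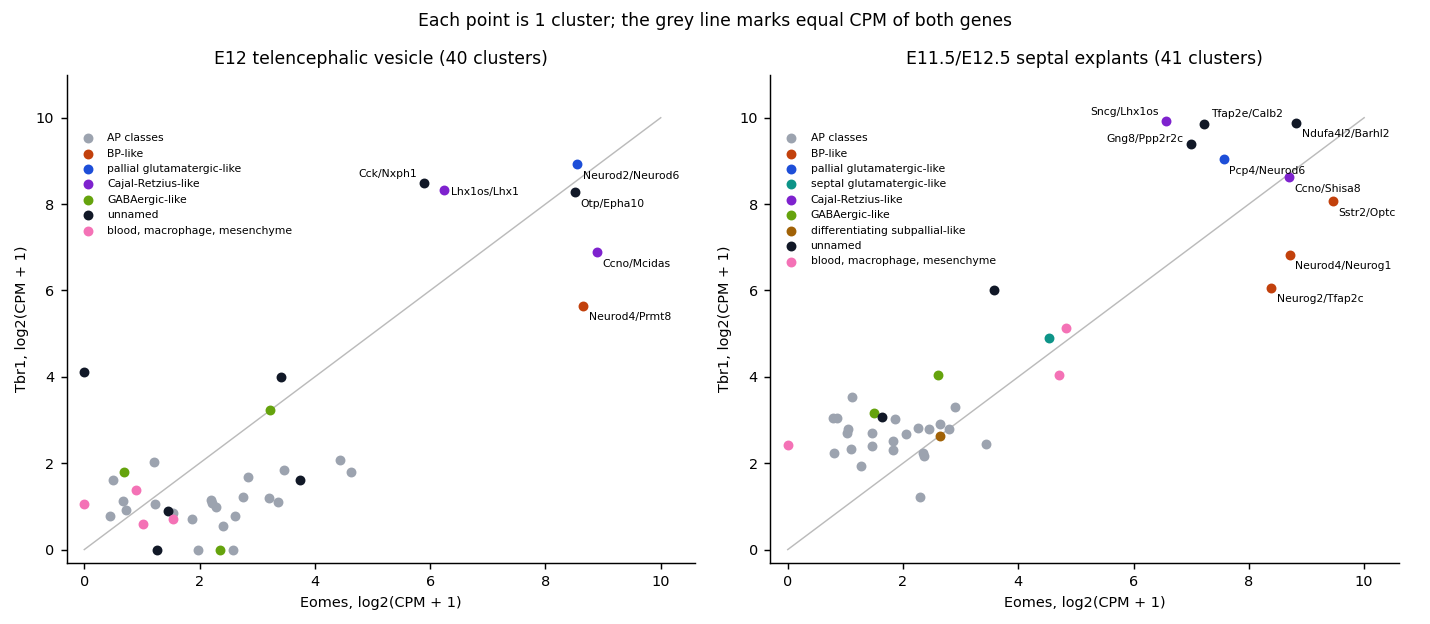
Each point is 1 cluster, with its level of *Eomes* on the x axis and of *Tbr1* on the y axis, both as log2(CPM + 1), coloured by class, and the clusters of at least 50 cells with over 100 CPM of either gene are named. BP-like clusters lie below the line of equal CPM, and the Cajal-Retzius-like clusters led by *Lhx1os*, with 74.3 and 93.2 CPM of *Eomes*, lie above it.

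Detection was often shallow. Of the 1454 *Eomes*-positive neural cells of the telencephalic vesicle, 34.5% held 1 UMI, 42.3% held 2 to 5 and 23.2% held more than 5, up to 34. Of the 1143 *Tbr1*-positive cells 35.3% held 1 UMI and 9.62% more than 5, up to 41. A single UMI was held by 28.7% of the 1089 *Eomes*-positive and 28.1% of the 1262 *Tbr1*-positive neural cells of the septal explants. There 52.4% of *Tbr1*-positive cells held more than 5 UMIs, up to 47, against 30.4% of *Eomes*-positive cells, up to 39. Sharing of cells between *Eomes* and *Tbr1* is therefore given at 1 and at 2 UMIs.

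Both genes were detected together in 679 of 9669 neural cells of the telencephalic vesicle, or 7.02% (6.52 to 7.55), and in 730 of 5171 of the septal explants, or 14.1% (13.2 to 15.1). The product of the single shares over all neural cells gave 172 and 266 such cells. Most of that excess was already contained in the clusters. With the product taken within clusters and 10 depth groups, 612 and 707 cells were expected, and the observed numbers were 1.11 (1.03 to 1.197) and 1.03 (0.958 to 1.11) times these. After thinning the telencephalic vesicle ratio was 1.11 (0.997 to 1.22), so its interval then included 1, as the septal one did with and without thinning. Every cell of the septal *Ndufa4l2*/*Barhl2*, *Tfap2e*/*Calb2* and *Sncg*/*Lhx1os* clusters held *Tbr1*. Their expected numbers therefore equal the observed 189, 124 and 72 cells by construction. These cells pull the septal ratio towards 1, so it cannot show whether the genes were detected independently within clusters. Of the *Eomes*-positive cells, 46.7% (44.1 to 49.3) in the telencephalic vesicle and 67.0% (64.2 to 69.8) in the septal explants also held *Tbr1*. With at least 2 UMIs required for each gene the shares were 38.2% and 68.9%, and after thinning 40.5% and 66.9%. Conversely, 59.4% and 57.8% of *Tbr1*-positive cells also held *Eomes*.

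The share of cells with both genes differed widely among BP-like cells and neuron groups. Of the BP-like cells of the telencephalic vesicle 55.5% held *Eomes* alone, 27.1% held both genes and 1.56% held *Tbr1* alone. In pallial glutamatergic-like neurons these shares were 5.80%, 76.8% and 16.4%. In the *Otp*/*Epha10* neurons 54.9% held both genes, whereas in the *Cck*/*Nxph1* neurons 16.8% held both and 69.1% held *Tbr1* alone. Among septal BP-like cells 42.3% held *Eomes* alone and 39.8% held both, and 59.1% of pallial glutamatergic-like neurons held both and 39.8% *Tbr1* alone. No cell of the *Ndufa4l2*/*Barhl2* or *Tfap2e*/*Calb2* clusters held *Eomes* alone, where 3 counts of the total set an upper limit of 1.45% and 1.66% (exact intervals reach 1.77% and 2.02%), while 91.3% and 68.5% of them held both genes.

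The Cajal-Retzius-like clusters again stood on both sides. Among telencephalic vesicle cells 38.0% of the *Ccno*/*Mcidas* cluster held *Eomes* alone and 4.53% *Tbr1* alone, whereas 5.10% of the *Lhx1os*/*Lhx1* cells held *Eomes* alone and 49.0% *Tbr1* alone. Both genes were found in 39.5% and 26.0% of these clusters. All septal explant cells of the *Sncg*/*Lhx1os* cluster held *Tbr1*, 47.4% of them with *Eomes*, and 76.4% of the *Ccno*/*Shisa8* cells held both. Over all AP classes co-detection was rare, with 46 of 6949 cells in the telencephalic vesicle and 14 of 3335 in the septal explants. The product of the single shares over these APs gave 9.06 and 11.3 cells. The observed numbers were 5.08 (3.72 to 6.77) and 1.24 (0.678 to 2.08) times these. That product pooled AP classes with unlike shares and depths.

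**Figure D3:**
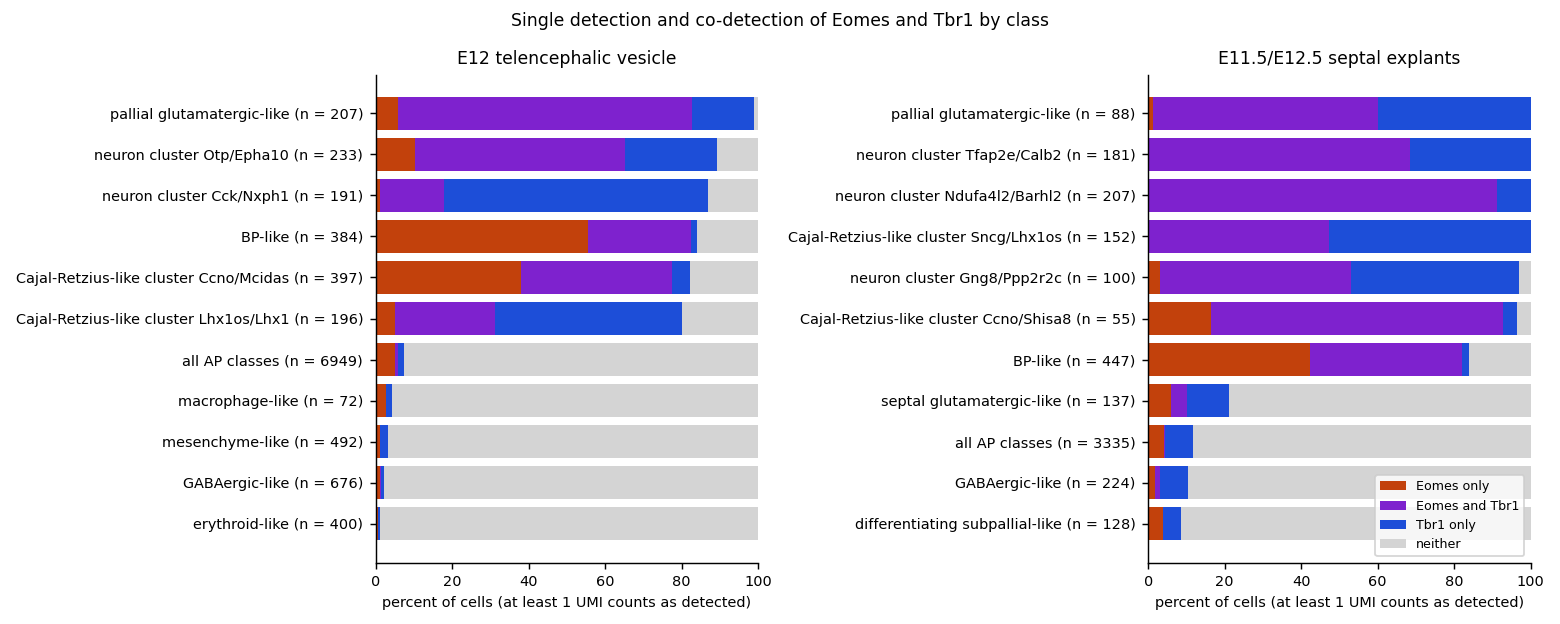
Percent of the cells of each class with at least 1 UMI of *Eomes* only, of both genes, of *Tbr1* only, or of neither, with the number of cells in each class. The *Eomes*-only share is largest in BP-like cells, at 55.5% in the telencephalic vesicle and 42.3% in the septal explants, and both genes together fill 76.8% and 59.1% of the pallial glutamatergic-like cells.

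The balance of the genes within a cell was read in cells that held at least 5 UMIs of the pair. In the telencephalic vesicle the median share of *Eomes* among these UMIs was 100% in 158 BP-like cells and 44.4% in 142 pallial glutamatergic-like neurons, and 80.3% of those neurons had between 20% and 80% *Eomes*. It was 63.6% in the *Otp*/*Epha10* neurons and 0% in the *Cck*/*Nxph1* neurons. For the septal explants the median share of *Eomes* was 87.5% in 253 BP-like cells, 31.2% in 203 *Ndufa4l2*/*Barhl2* neurons, 14.8% in 80 pallial glutamatergic-like neurons and 10.5% in the *Tfap2e*/*Calb2* neurons. The *Eomes* part of the pair was thus smaller in each of these neuron groups than in the BP-like cells of its library.

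Cells were next ordered from AP to neuron by the ratio of 12 neuronal to 9 AP transcripts, none of them a T-box gene, and divided into 10 bins of equal size. Along the pallial lineage, which joined pallial-like and ventral pallial-like APs, BP-like cells and pallial glutamatergic-like neurons, *Eomes* was high in earlier bins than *Tbr1*, and it was lower in the last bin than in the one before. In the 2212 telencephalic vesicle cells *Eomes* was 2.32 CPM in bin 1, 27.3 in bin 7, 159 in bin 8, 568 (534 to 604) in bin 9 and 389 (360 to 419) in bin 10. *Tbr1* was 1.32 CPM in bin 1, 3.08 in bin 7, 9.36 in bin 8, 150 (133 to 169) in bin 9 and 409 (379 to 440) in bin 10. The ratio of *Tbr1* to *Eomes* UMIs was 0.0590 in bin 8, 0.265 in bin 9 and 1.05 in bin 10. In bin 8 *Eomes* was detected in 49.3% of cells and *Tbr1* in 8.60%.

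The 1283 pallial lineage cells of the septal explants, which pooled E11.5 and E12.5 embryos, gave the same order. Whether the mix of ages changed along the bins of any lineage in this library was not tested. Differences between its bins may therefore also reflect age. *Eomes* was 1.74 CPM in bin 1, 30.6 in bin 6, 233 in bin 7, 562 (526 to 601) in bin 9 and 367 (338 to 397) in bin 10. *Tbr1* was 4.78 CPM in bin 1, 20.3 in bin 7, 155 in bin 8, 258 in bin 9 and 380 (351 to 411) in bin 10. In both libraries the *Eomes* intervals of bins 9 and 10 did not overlap, *Eomes* being lower and *Tbr1* higher in bin 10, and the *Tbr1* intervals did not overlap either. This order depended on the clustering and on the number of bins. At Leiden resolution 0.8 in both libraries, and at 1.5 in the telencephalic vesicle, *Eomes* was also highest in bin 10. The telencephalic vesicle had no pallial glutamatergic-like class at these resolutions, while the septal explants had one at 0.8. Why the order changed was not tested. With 5 bins both genes were highest in the last bin of the telencephalic vesicle.

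Hem-like APs and Cajal-Retzius-like neurons were followed in the same way, a lineage added after the data were seen. The cortical hem is a medial signalling centre and a source of Cajal-Retzius neurons. The neurons here were not traced to the hem, and BP-like cells, all counted in the pallial lineage, were left out. In the septal explants 25 of the 207 Cajal-Retzius-like neurons held tdTomato, the reporter of *Dbx1* history. In 1457 cells of the telencephalic vesicle *Eomes* was highest in bin 8 at 551 CPM (509 to 595) and was 167 CPM (145 to 191) in bin 10, while *Tbr1* went from 176 CPM in bin 8 to 278 CPM (249 to 308) in bin 10. In 342 cells of the septal explants *Eomes* was highest in bin 5 at 274 CPM (224 to 331) and was 113 CPM in bin 10, while *Tbr1* went from 537 CPM in bin 5 to 1192 CPM (1086 to 1306) in bin 10.

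The septal lineage of the explants, made of septal-like APs and septal glutamatergic-like neurons, had little of either gene. All BP-like cells were counted in the pallial lineage. The bins therefore cannot show whether either gene was high between septal APs and neurons. *Eomes* did not exceed 4.28 CPM and *Tbr1* did not exceed 8.55 CPM in the first 9 bins, and the last bin had 25.4 CPM (16.7 to 36.9) and 33.8 CPM (23.7 to 46.8).

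**Figure D4:**
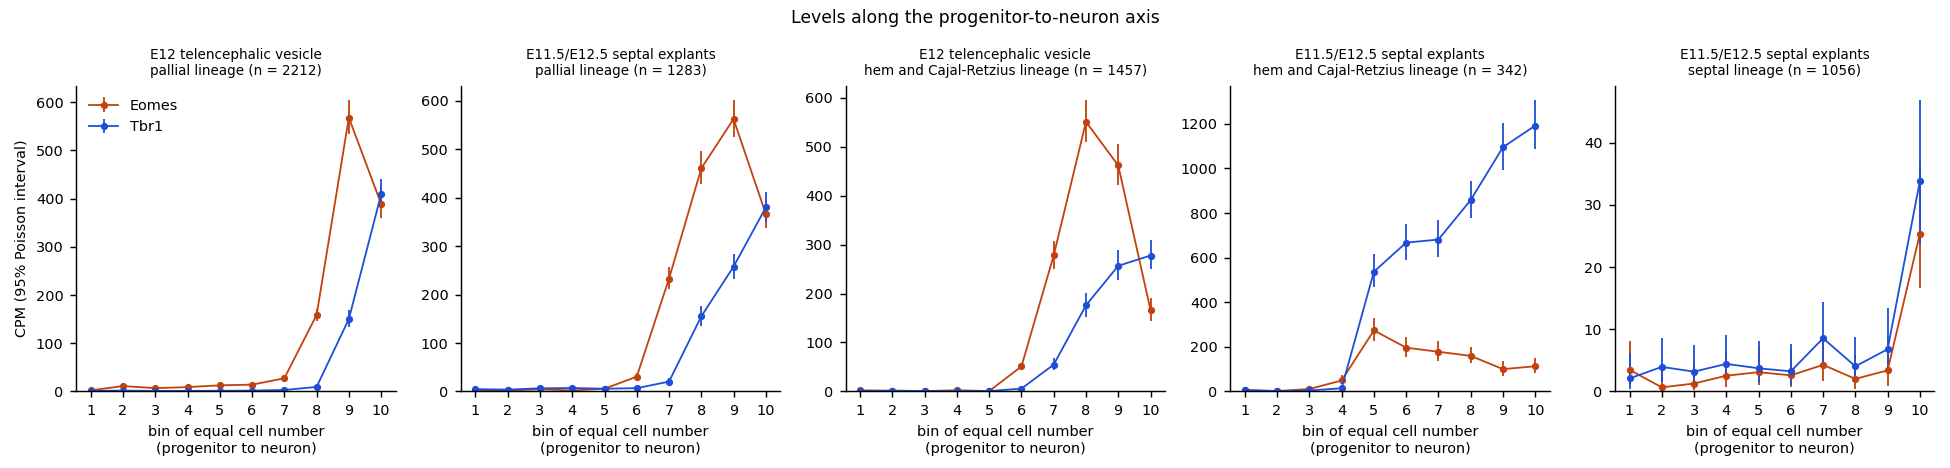
Level of *Eomes* and *Tbr1* in 10 equal bins of cells ordered from AP to neuron, in CPM with exact 95% Poisson intervals for counting error. In the pallial lineage, with clusters at Leiden resolution 2.5, *Eomes* is highest in bin 9 of both libraries, at 568 and 562 CPM, and *Tbr1* in bin 10, at 409 and 380 CPM.

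*Eomes* and *Tbr1* were placed among 29 other genes of neuronal differentiation by their mean bin weighted by CPM. Along the pallial lineage *Eomes* had a mean bin of 8.92 and *Tbr1* of 9.60 in the telencephalic vesicle, and 8.56 and 9.0 in the septal explants. Of the 29 genes in the telencephalic vesicle 22 came before *Eomes*, 5 between the pair and 2 after *Tbr1*, and in the septal explants 23, 3 and 3. The proneural genes *Neurog2* (7.43 and 7.35) and *Neurog1* (7.86 and 7.96), which start neuronal differentiation, and the Notch pathway gene *Hes6* (7.63 and 7.44) came before *Eomes*. The helix-loop-helix genes *Neurod1* (9.19 and 8.84), *Nhlh1* (9.28 and 8.75) and *Nhlh2* (9.32 and 8.77) came between *Eomes* and *Tbr1* in both libraries. Several of these genes also served as markers of the BP-like class, so the order describes these cells and is no independent measure of it.

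Neural cells were then sorted by detection alone into *Eomes*-only cells, cells with both genes and *Tbr1*-only cells. The telencephalic vesicle held 775, 679 and 464 of these, with median values on the AP-to-neuron axis, on a log2 scale, of 0.05, 3.08 and 3.72, against −1.72 in cells with neither gene. The septal explants held 359, 730 and 532, with medians of 0.66, 3.13 and 1.93. Single UMIs in APs weighed on the single-gene groups. APs made up 45.2% of the *Eomes*-only and 24.4% of the *Tbr1*-only cells of the telencephalic vesicle, and 44.5% of the *Tbr1*-only cells of the septal explants. With 2 UMIs required the *Tbr1*-only group lay furthest along the axis in both libraries. The medians were then 1.52, 3.15 and 4.06 in 589, 364 and 376 cells, and 1.82, 3.09 and 4.12 in 241, 535 and 373 cells. The make-up of the *Eomes*-only group differed between the libraries at 2 UMIs. In the septal explants 85.9% of these cells were BP-like. In the telencephalic vesicle 36.7% were BP-like, 29.9% Cajal-Retzius-like and 22.9% APs.

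Transcripts of the cell cycle were lower in *Tbr1*-only than in *Eomes*-only cells, the more so with the stricter detection. The summed S phase and G2/M lists, 20 genes each, were 0.694 times (0.686 to 0.703) as high in the telencephalic vesicle and 0.811 times (0.799 to 0.823) in the septal explants when 1 UMI counted as detection. At 1 UMI the cells with both genes were lower still in the septal explants, where *Tbr1*-only cells had 1.89 times (1.86 to 1.92) their level, and in the telencephalic vesicle, where it was 1.05 times (1.04 to 1.07). With 2 UMIs the ratios of *Tbr1*-only to *Eomes*-only cells were 0.267 (0.260 to 0.274) and 0.278 (0.270 to 0.285), and the cells with both genes lay between. The G2/M sum was then 4330 CPM in *Eomes*-only cells, 2552 in cells with both genes and 962 in *Tbr1*-only cells of the telencephalic vesicle, and 3642, 1327 and 885 CPM in the septal explants. In the telencephalic vesicle and at 2 UMIs, *Cenpf*, a kinetochore gene, was 0.161 times and *Rrm2*, a subunit of ribonucleotide reductase, 0.272 times as high in *Tbr1*-only as in *Eomes*-only cells. The septal ratios were 0.328 and 0.176. *Tpx2*, which acts on the spindle, was at 0.192 and 0.209.

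Other genes were compared between the same groups of cells, with a difference counted at a CPM ratio of at least 2. Detected at 1 UMI, 5.85% of 12726 genes in the telencephalic vesicle were higher in *Tbr1*-only cells and 1.19% lower, and in the septal explants 5.81% of 10310 were higher and 1.19% lower. At 2 UMIs these shares were 10.8% and 13.5% of 11736 genes, and 14.1% and 6.7% of 9212. None of the 20 G2/M genes was lower at 1 UMI in either library, and all 20 were lower at 2 UMIs in both. Of the S phase genes 19 of 20 and 16 of 19 tested were lower at 2 UMIs and none at 1 UMI. The median log2 ratio over all genes lay between −0.14 and 0.09 in these comparisons, and that of the G2/M list at 2 UMIs was −2.14 and −2.13.

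The proneural genes *Neurog1* and *Neurog2* were lower in *Tbr1*-only than in *Eomes*-only cells. Levels and ratios of single genes, here and in the next paragraph, are at 1 UMI unless stated otherwise. *Neurog1* went from 62.6 CPM in *Eomes*-only to 5.47 CPM in *Tbr1*-only cells of the telencephalic vesicle and from 443 to 39.9 CPM in the septal explants. *Neurog2* went from 194 to 37.8 CPM and from 927 to 61.6 CPM. The 5 progenitor genes, such as *Pax6*, changed less, with 1 and 0 of them lower at 1 UMI, and 3 and 1 at 2 UMIs. Of the AP genes of the axis 0 of 9 and 0 of 8 tested were lower at 1 UMI, and 7 and 1 at 2 UMIs. Of the 4 Notch pathway genes 3 were lower in both libraries at 1 UMI, with *Hes6* going from 236 to 97.0 CPM and from 995 to 275 CPM. At 2 UMIs 1 was lower in the telencephalic vesicle and 3 in the septal explants. Of the 5 genes of cell cycle exit 2 and 4 were lower at 1 UMI and 0 were higher. At 2 UMIs 2 were lower and 1 was higher in the telencephalic vesicle, and 4 were lower and 0 higher in the septal explants. Over all genes 1.19% were lower in each library at 1 UMI. At 2 UMIs 13.5% were lower and 10.8% higher in the telencephalic vesicle, and 6.7% and 14.1% in the septal explants. *Gadd45g*, a stress- and differentiation-induced gene, went from 288 to 80.7 CPM and from 894 to 183 CPM.

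The neuronal lists differed. Of the 12 neuronal genes of the axis 9 passed the ratio of 2 in the telencephalic vesicle and 8 in the septal explants at 1 UMI, and 11 and 10 at 2 UMIs. Of 9 tested genes for transcriptional regulators of pallial neurons, such as *Bcl11b*, 0 were higher and 1 was lower in *Tbr1*-only cells of the telencephalic vesicle at 1 UMI, and 1 was higher and 3 were lower at 2 UMIs. In the septal explants 3 of 9 were higher and 1 lower at 1 UMI, and 4 were higher and 1 lower at 2 UMIs. Over all genes of the telencephalic vesicle 5.85% were higher and 1.19% lower at 1 UMI, and 10.8% and 13.5% at 2 UMIs. The shares over all genes of the septal explants were 5.81% and 1.19%, and 14.1% and 6.7%. *Slc17a6*, the vesicular glutamate transporter Vglut2, went from 21.4 CPM in *Eomes*-only to 104 CPM in *Tbr1*-only cells in the telencephalic vesicle and from 6.20 to 34.5 CPM in the septal explants. Of the transmitter genes tested at 1 UMI, 1 of 3 was higher in the telencephalic vesicle and 2 of 2 in the septal explants, with 0 lower. The other septal one was *Gad2*, a gene of GABAergic neurons, so higher values there were not confined to a glutamatergic gene. Of 3 genes tied to *Tbr1* by earlier work, *Reln*, the secreted glycoprotein of Cajal-Retzius neurons, was 5.69 times (4.95 to 6.54) and 5.49 times (4.06 to 7.58) as high. *Cask*, a synaptic scaffold, was 1.57 times and 2.51 times as high, and *Auts2* was 0.838 times and 0.872 times. Cajal-Retzius-like cells were 24.6% of *Tbr1*-only and 20.8% of *Eomes*-only cells in the telencephalic vesicle, and 15.4% and 2.51% in the septal explants. The *Ccno*/*Mcidas* cluster, which lacked the *Reln* marker, gave 151 *Eomes*-only and 18 *Tbr1*-only cells, and the *Lhx1os*/*Lhx1* cluster 10 and 96. Whether this make-up accounts for the *Reln* ratio was not tested. *Fezf2*, a gene of deep-layer projection neurons that APs also express, was 0.532 times and 0.476 times as high. *Bhlhe22*, a gene of postmitotic pallial neurons, differed in direction, at 0.323 times in the telencephalic vesicle and 2.33 times in the septal explants. In the telencephalic vesicle it was among the 10 leading genes of the BP-like cluster, and in the septal explants among those of the pallial glutamatergic-like cluster. At 2 UMIs its ratio was 0.680 (0.430 to 1.04) and 3.25 (2.55 to 4.21), so that in the telencephalic vesicle the interval then included 1.

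**Figure D5:**
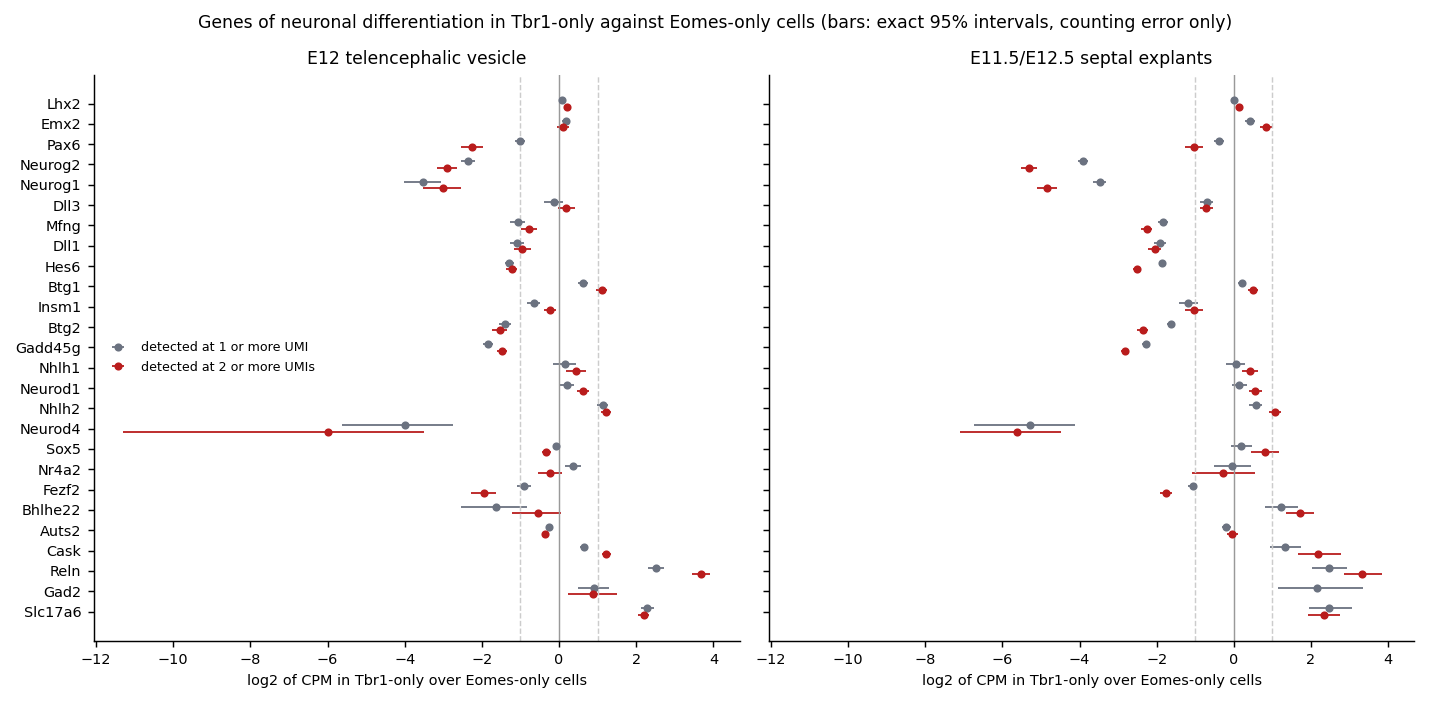
Ratio of CPM in *Tbr1*-only over *Eomes*-only cells on a log2 scale for the named genes, with detection at 1 or at 2 UMIs and exact 95% intervals for counting error, and dashed lines at a ratio of 2 either way. *Neurog1*, *Neurog2* and *Neurod4* lie far to the left, with *Neurog1* at −3.52 in the telencephalic vesicle, and *Reln* and *Slc17a6* to the right, at 2.51 and 2.29.

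Glutamatergic neurons did not all express the pair. In the septal explants the 137 septal glutamatergic-like neurons had 22.2 CPM (14.99 to 31.7) of *Eomes* and 28.9 CPM (20.5 to 39.5) of *Tbr1*, with 10.2% and 15.3% of cells positive, and 78.8% of them held neither gene. The pallial glutamatergic-like level was 8.49 times (5.78 to 12.9) higher for *Eomes* and 18.2 times (13.2 to 25.8) higher for *Tbr1*. YFP was found at 3 or more UMIs in 77 of the 137 septal glutamatergic-like neurons. No such count is given for the pallial glutamatergic-like class, so these ratios may also reflect age. To set cells of one transmitter side by side, only cells with a *Slc17a6* UMI were taken. *Tbr1* was then detected in 8 of 58 septal glutamatergic-like neurons, or 13.8% (6.15 to 25.4), and *Eomes* in 6 of them. It was detected in 35 of 36 pallial glutamatergic-like, 139 of 139 Cajal-Retzius-like, 126 of 126 *Ndufa4l2*/*Barhl2*, 129 of 129 *Tfap2e*/*Calb2* and 69 of 72 *Gng8*/*Ppp2r2c* neurons. The septal glutamatergic-like share of *Tbr1* before this gate, 15.3%, stood beside 8.48% in the GABAergic-like neurons. In the telencephalic vesicle *Tbr1* was detected in 162 of 171 pallial glutamatergic-like, 165 of 205 *Otp*/*Epha10*, 130 of 147 *Cck*/*Nxph1* and 256 of 345 Cajal-Retzius-like neurons with *Slc17a6*.

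The genes whose levels across clusters were most like those of the pair were found by Pearson's r of log2(CPM + 1), over 40 clusters and 10992 genes in the telencephalic vesicle and 38 clusters and 8556 genes in the septal explants. The clusters of a library share its depth and its free RNA, and r is given as a description. *Eomes* was most like *Nhlh2* (r = 0.925), *Nhlh1* (r = 0.919) and *Bhlhe22* (r = 0.916) in the telencephalic vesicle, and most like *Nhlh1* (r = 0.946), *Lhx9* (r = 0.927) and *Neurod1* (r = 0.923) in the septal explants. *Neurod1*, *Nhlh1*, *Nhlh2* and *Ebf2* were among the first 8 for *Eomes* in both. *Tbr1* was most like *Slc17a6* (r = 0.960), *Nxph4* (r = 0.956) and *Lhx9* (r = 0.941) in the telencephalic vesicle, and most like *Lhx9* (r = 0.945), *Rcan2* (r = 0.943) and *Nxph4* (r = 0.940) in the septal explants. *Slc17a6*, *Nxph4* and *Lhx9* were among the first 8 for *Tbr1* in both. Between themselves *Eomes* and *Tbr1* had r = 0.801 and 0.890, so that *Tbr1* was number 33 and number 15 among the genes most like *Eomes*.

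The other T-box genes, apart from *Mga*, were detected in few neural cells, at most 78 of the 9669 in the telencephalic vesicle. Of the 17 T-box genes in the matrices, 9 apart from the pair were found in at least 20 cells of the telencephalic vesicle. *Tbx18*, *Tbx15*, *Tbx2* and *Tbx3* were transcripts of mesenchyme-like cells, at 88.0, 70.4, 22.9 and 13.1 CPM there, where *Eomes* had 6 UMIs and *Tbr1* had 11 in 492 cells. *Tbx22* was also highest in that class, at 4.35 CPM. *Mga*, which encodes a MAX partner with a T-box, was found in 4398 cells across classes. *Tbx1* was highest in the macrophage-like class at 23.7 CPM. *Tbx21*, the closest relative of *Eomes* and *Tbr1*, had 74 UMIs in 67 cells, 8 of them with *Eomes* and 1 with *Tbr1*, and *Tbx6* had 45 UMIs in 44 cells. Septal *Mga* was found in 1417 cells, *Tbx6* in 29, *Tbx18* in 25, with 59 of its 63 UMIs in mesenchyme-like cells, and *Tbx21* in 20. Apart from *Eomes*, *Tbr1* and *Mga*, no T-box gene reached 1000 UMIs in either library.

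Cells with a *Dbx1* history carry tdTomato in the E12.5 embryos of the septal explants, and a cell with at least 1 tdTomato UMI was taken as positive. The reporter was present in the E12.5 embryos alone, whereas negative cells came from both ages, so age and lineage cannot be told apart. The negative cells include any E11.5 cells with a *Dbx1* history. Free RNA can also give a UMI to an unmarked cell. Among 394 tdTomato-positive neural cells 24.1% held *Eomes* and 29.2% *Tbr1*, against 20.8% and 24.0% of 4777 negative cells. Of 48 positive BP-like cells 87.5% held *Eomes* and 41.7% *Tbr1*, against 81.5% and 41.6% of 399 negative ones. All 20 positive pallial glutamatergic-like neurons and all 25 positive Cajal-Retzius-like neurons held *Tbr1*, against 98.5% of 68 and 94.0% of 182 negative ones. Of the 22 positive septal glutamatergic-like neurons none held *Eomes*, where 3 counts of the total set an upper limit of 13.6% (the exact interval reaches 15.4%), and 1 held *Tbr1*. The 115 negative ones held *Eomes* in 12.2% and *Tbr1* in 17.4%.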

How the data were processed

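The authors deposited 1 matrix of UMI counts per library, made with Cell Ranger 2.1.1 for the septal explants (10x 3′ kit version 2) and 7.1.0 for the telencephalic vesicle (version 3.1), per the submitters' notes against mm10. The intron setting is not given in the sources used here. The counts were used as deposited. Barcodes within 3 median absolute deviations of the median mitochondrial share were kept, and Scrublet marked 764 doublets (6.13%) and 72 (1.32%), which were removed. The libraries shared 1 barcode sequence. Clustering (Python 3.11.15, scanpy 1.11.5) used 2000 variable genes without T-box and cell cycle genes, 30 components and Leiden resolution 2.5. A class name needed at least 3 detected markers of its list and no other class leading among the top 10 genes, and a regional name a mean standardised marker level of at least 0.5. The resolution and these limits were set after the clusters, with their levels of *Eomes* and *Tbr1*, had been seen. Unnamed clusters led by a blood, vessel or mesenchyme marker or at less than 50% of their library's median depth were left out of neural cells (1074 and 132 cells).

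Both members and all gene lists were chosen with earlier results of these data known. From each list at most 4 genes were named, those with the largest and the smallest log2 ratios between *Tbr1*-only and *Eomes*-only cells, plus T-box genes found in at least 20 cells and the 8 genes most like each member. A listed gene is not reported here. Ratios needed at least 50 UMIs in both groups together and carry exact conditional binomial intervals. With 1 library per condition no test was made, and all intervals cover counting error only. Statistics were tested on simulated data. Alternatives changed the doublet step, the cell filters, the resolution, the seed, the cell cycle genes, the detection limit, the depth and the UMI minimum.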

Additional observations from a re-analysis of the deposited data

How the results depend on the processing

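No paired analysis was possible because each condition had 1 library. Of the values recomputed under the alternatives, 97 stayed within their counting error or within 1.5 times the count of genes and 47 moved. The cause of each move was not tested. *Eomes* in BP-like cells of the telencephalic vesicle (402 CPM) was 448 with doublets kept, 440 with at least 1000 genes per cell, 434 at Leiden resolution 0.8, 423 with another seed, 453 as a mean over cells and 469 after thinning. In the septal explants (424 CPM) it was 374 with doublets kept, 336 with all barcodes, 399 with at least 1000 genes, 335 at resolution 0.8, 395 with another seed and 449 after thinning. *Tbr1* in pallial glutamatergic-like cells of the telencephalic vesicle (482 CPM) was 430 with doublets kept, 396 with all barcodes, 437 with another seed and 419 with cell cycle genes kept, and at resolution 0.8 or 1.5 no such class was found. In the septal explants (526 CPM) it was 475 with doublets kept, 475 with all barcodes and 453 at resolution 0.8. The share of *Eomes*-positive cells with *Tbr1* in the telencephalic vesicle (46.7%) was 38.2% at 2 UMIs and 40.5% after thinning. The centile of the highest *Eomes* bin (85) was 75 with all barcodes, 95 at resolution 0.8, 75 with cell cycle genes kept and 95 at resolution 1.5 in the telencephalic vesicle, and 95, 75 and 75 at resolution 0.8, with cell cycle genes kept and at 1.5 in the septal explants, where all neural cells also gave 75. At centile 95 it no longer preceded that of *Tbr1*, which was 95 in these settings. In the telencephalic vesicle both genes were at 90 with 5 bins. With 20 bins *Eomes* was at 87.5 and *Tbr1* at 97.5. Cell cycle transcripts in *Tbr1*-only over *Eomes*-only cells were 0.717 with doublets kept, 0.722 with all barcodes, 0.267 at 2 UMIs and 0.286 after thinning in the telencephalic vesicle (0.694), and 0.278 and 0.549 at 2 UMIs and after thinning in the septal explants (0.811). Genes higher in *Tbr1*-only cells numbered 1262 at 2 UMIs, 1423 with a minimum of 10 UMIs and 393 with 200 in the telencephalic vesicle (744), and 1301, 1220 and 250 in the septal explants (599). Genes lower numbered 1590, 590 and 57 (152), and 617, 311 and 54 (123). The resolution of 1.5 was added after the data were seen, and 2.5 was first planned as an alternative to 0.8. At these depths a share below that of GABAergic-like cells cannot be told from background, and pooled embryos give no measure of variation between animals.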

Other observations

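Some barcodes outside the neural classes also held UMIs of the pair. The 132 cells of a shallow septal cluster led by *Cyb5r3* and *Rlbp1*, at a median of 5145 UMIs, had 10.9 CPM of *Eomes* and 63.2 CPM of *Tbr1*. In the telencephalic vesicle the 458 cells of a cluster led by *Fgf8* and *Rpgrip1*, at a median of 1397.5 UMIs, had 9.59 CPM of *Eomes* and 14.9 CPM of *Tbr1*. The 26 erythroid-like barcodes of the septal explants had a median of 29045.5 UMIs and 27.4 CPM of *Eomes* and 34.3 CPM of *Tbr1*, with 3 and 6 cells positive, whereas 400 erythroid-like cells of the telencephalic vesicle, at a median of 5428.5 UMIs, had 0.692 CPM of each. Whether these septal barcodes held more than 1 cell was not tested. *Tbx1*, named here after its values were seen, had 22 of its 25 septal UMIs in Cajal-Retzius-like neurons.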
